A study of Mus musculus with 10 samples.

Results

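The 38 genes described here encode the receptors, scaffolds, kinase subunits and vesicle transporters of the glutamate synapse. They were chosen by name and matched to mouse Ensembl identifiers in a table of 22024 identifiers. All 38 were found, and all 38 were among the 15191 genes kept for testing after genes with low counts were removed. By role they are 4 AMPA receptor subunits, 5 kainate receptor subunits, 7 NMDA receptor subunits, 1 delta receptor, 6 metabotropic receptors, 4 Dlg, 3 Homer and 3 Shank scaffold genes, 2 subunits of the kinase CaMKII and 3 vesicular glutamate transporters.

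The study sequenced polyadenylated RNA of the lumbar spinal cord from 10 female mice aged 3 months, with 1 library per animal. TDP-43 is an RNA-binding protein encoded by TARDBP, and its M337V substitution is linked to amyotrophic lateral sclerosis, a motor neuron disease. The groups were nontransgenic C57BL/6 mice (NTg, n = 3), mice carrying a human genomic BAC with wild-type TARDBP (WT, n = 2) and mice carrying the same BAC with M337V (M337V, n = 5). Both BACs were inserted as 1 copy at the Rosa26 locus (Gt(ROSA26)Sor) by PhiC31 integrase in embryonic stem cells, and each transgenic line traces back to such targeted cells. The mouse Tardbp gene is not described as altered in any group, so the transgenic animals carry the human gene in addition to it. Founders were backcrossed to C57BL/6J, and controls were littermates of matching age. Homozygous and heterozygous animals both existed, and which of these were sequenced is not given in the sources used here.

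At an excitatory synapse, vesicular transporters load glutamate into vesicles, and released glutamate opens AMPA, kainate and NMDA channels and activates metabotropic receptors coupled to G proteins. Dlg, Shank and Homer proteins hold these receptors in the postsynaptic density, and calcium entering through NMDA receptors activates CaMKII. In the spinal cord this machinery carries sensory input into the dorsal horn and excitatory drive onto interneurons and motor neurons.

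TDP-43 is known to bind RNA rich in UG repeats, so the TG repeats of the members' transcripts are shown before the values. The motif TGTGTGTGTGTG, searched on the sense strand of each gene's longest annotated transcript, was present in 11 of 38 members (28.9%). It was present in 1329 of 15149 tested genes with a transcript (8.77%), and in 1190 of 10236 (11.6%) of those whose transcript length lay within the range of the members. The 11 were Gria2, Grik2, Grik3, Grik4, Grin2b, Grid1, Dlg4, Homer1, Homer2, Shank3 and Slc17a8. Of the 8 members described below as called, 3 held the motif (Grik3, Dlg4 and Homer1). In each it lay in the 3' untranslated region of that longest transcript. In Dlg4 and Homer1 the run lies before the annotated gene end, which is at chr11:70047522 and chr13:93405129. Whether other transcripts of these genes hold the run was not examined. The sites are given 5′ to 3′ from the GENCODE transcripts of build GRCm38, with the run of TG in capitals, because these are the called members in which the motif lies.
Dlg4, chr11:70035363-70035392, plus strand: tttgtaTGTGTGTGTGTGTGTGTGttcaca
Homer1, chr13:93358173-93358202, plus strand: cagtatataTGTGTGTGTGTGtatatatat
Grik3, chr4:125710013-125710042, plus strand: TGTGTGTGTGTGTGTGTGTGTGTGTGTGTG
The run in Dlg4 was 18 bases long and that in Homer1 12 bases, while the run in Grik3 extended to 42 bases and was the first of 4. These are matches of letters, not measured binding sites, and the 3 genes did not share a direction: in WT animals Grik3 and Dlg4 were lower and Homer1 was higher than in NTg.

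The libraries held 18724888 to 21041474 counts each. Levels below are CPM, counts scaled to a common library size by TMM, and a gene is called changed where edgeR's quasi-likelihood test gave a Benjamini-Hochberg adjusted p below 0.05 over all 15191 genes. The library labelled NTg 4 held 2415 counts of human TARDBP, against 1 in NTg 5, 4 in NTg 6 and 2192 to 2723 in the transgenic libraries. It therefore went against its label, is called NTg 4 only after that label, and each call is given with and without it. The defining neuronal markers were abundant throughout, with 12 genes summing to 11180 to 12559 CPM in the NTg libraries, 12269 to 13587 in the WT libraries and 11201 to 13191 in the M337V libraries, and none of the 12 was called in either comparison with NTg. The sum covers neuronal markers that differed in direction. Syt1 had 4550 to 4769 raw counts in NTg, 3473 and 3462 in WT, and 3188 to 4435 in M337V. Snap25 had 52942 to 61687 in NTg, 57444 and 70201 in WT, and 57963 to 64899 in M337V. Oligodendrocyte markers moved with both transgenic groups: 8 genes summed to 23003 to 27434 CPM in the NTg libraries, 33705 to 37557 in the WT libraries and 30991 to 38270 in the M337V libraries, with 5 of 8 called higher in M337V and 6 of 8 in WT. Of 11 caudal Hox genes, which mark caudal levels of the cord, the 10 tested summed to 12.6 CPM in WT 8 and 38.8 in M337V 3, against 117 to 224 in the other libraries. The 8 motor neuron markers summed to 380 to 420 CPM in the NTg libraries, 480 to 497 in the WT libraries and 304 to 491 in the M337V libraries. The 6 Schwann cell markers summed to 353 to 1653 CPM in the NTg libraries, with NTg 4 highest, to 67.7 and 188 in the WT libraries and to 155 to 1055 in the M337V libraries, with M337V 3 highest. Meningeal markers were likewise lower in WT (101 to 167 CPM) than in NTg (197 to 654). The 7 microglial markers summed to 313 to 371 CPM in NTg, against 391 to 420 in WT and 389 to 415 in M337V, with 1 called higher in each. The 5 inhibitory neuron markers summed to 1712 to 1788 CPM in NTg, against 1608 to 1654 in WT and 1431 to 1713 in M337V, with none called. In M337V, 1 of 8 motor neuron and 2 of 8 skeletal muscle markers were called lower. Whether these shifts contributed to any value below was not tested. In bulk tissue, fewer cells of a type and less RNA per cell cannot be told apart.

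Across all libraries, levels per length (CPM per kilobase of merged exons, the scale on which genes are set side by side) covered a wide range. Slc17a6, the vesicular transporter of most spinal excitatory neurons, was highest on this scale with 54.6 ± 2.39 (SD, n = 10). Per kilobase of the longest transcript, Camk2b (80.1) and Grin1 (71.6) lay above it (71.2). Gria4 followed with 41.1 ± 2.34, then the CaMKII subunit Camk2b with 36.2 ± 3.96, the obligatory NMDA subunit Grin1 with 31.6 ± 4.14 and Gria1 with 30.2 ± 1.99. At the other end were Grm2 with 0.568 ± 0.176, Grin2a with 0.544 ± 0.0693, Slc17a8 with 0.415 ± 0.0843 and Slc17a7 with 0.413 ± 0.370. In all, 15 members lay above 10 CPM per kilobase and 4 below 1. The order is a graded one: of 37 pairs of neighbours in it, only 4 had ranges over the libraries that did not overlap (Slc17a6 above Gria4, Grik2 above Homer1, Grin3b above Grm8, and Grm8 above Grm2).

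**Figure D1:**
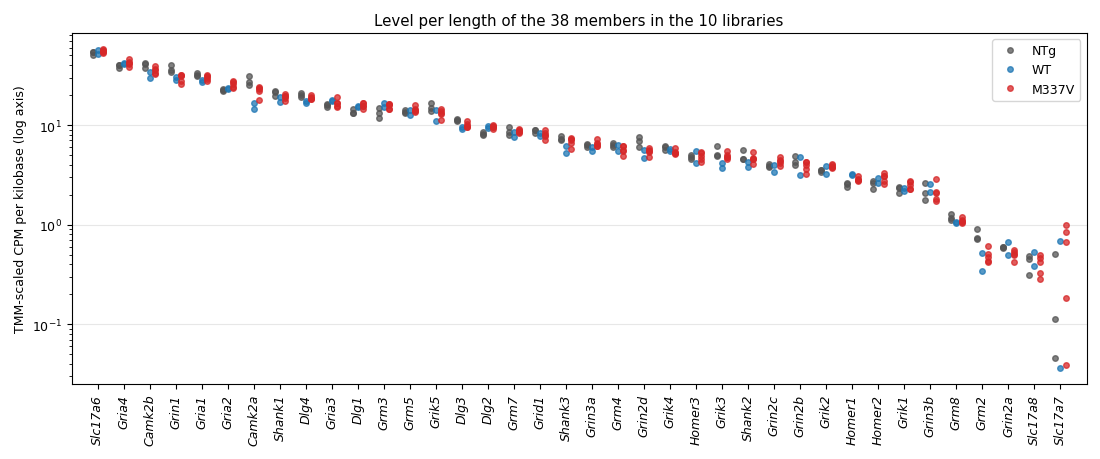
Level per length of the 38 members, ordered by mean, as TMM-scaled CPM per kilobase on a log axis; each point is 1 library, coloured by group. Slc17a6 stands above all others on this scale of merged exons with a mean of 54.6, and Slc17a7 at the low end shows the widest scatter between libraries.

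Within families, the composition on the per-length scale was led by 1 member in each. Gria4 made up 36.6% of the AMPA subunits over all libraries, Grik5 45.1% of the kainate subunits, Grin2d 40.1% of the GluN2-type subunits (Grin2a to Grin2d), Dlg4 35.4% of the Dlg genes, Shank1 63.4% of the Shank genes and Slc17a6 98.5% of the transporters. The share of Camk2a in the CaMKII pair was 40.8% ± 2.03 (SD, n = 3) in NTg, 32.7% ± 0.13 (n = 2) in WT and 38.4% ± 2.25 (n = 5) in M337V. The share of Gria1 among AMPA subunits was 29.2% ± 0.52 in NTg, 25.2% ± 0.51 in WT and 26.3% ± 1.64 in M337V. Dlg4 took 37.7% ± 1.54 of the Dlg genes in NTg, 33.4% ± 0.02 in WT and 34.8% ± 1.01 in M337V. These 3 shares had a higher mean in NTg than in either transgenic group. Other shares went the other way: Dlg1 took 25.7% in NTg, 29.8% in WT and 29.0% in M337V, Dlg2 15.5%, 18.5% and 17.6%, Grik2 10.9%, 12.8% and 13.0%, and Grin2c 25.0%, 27.5% and 30.7%. Shares were not tested, and a share depends on the length assumed for each gene.

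**Figure D2:**
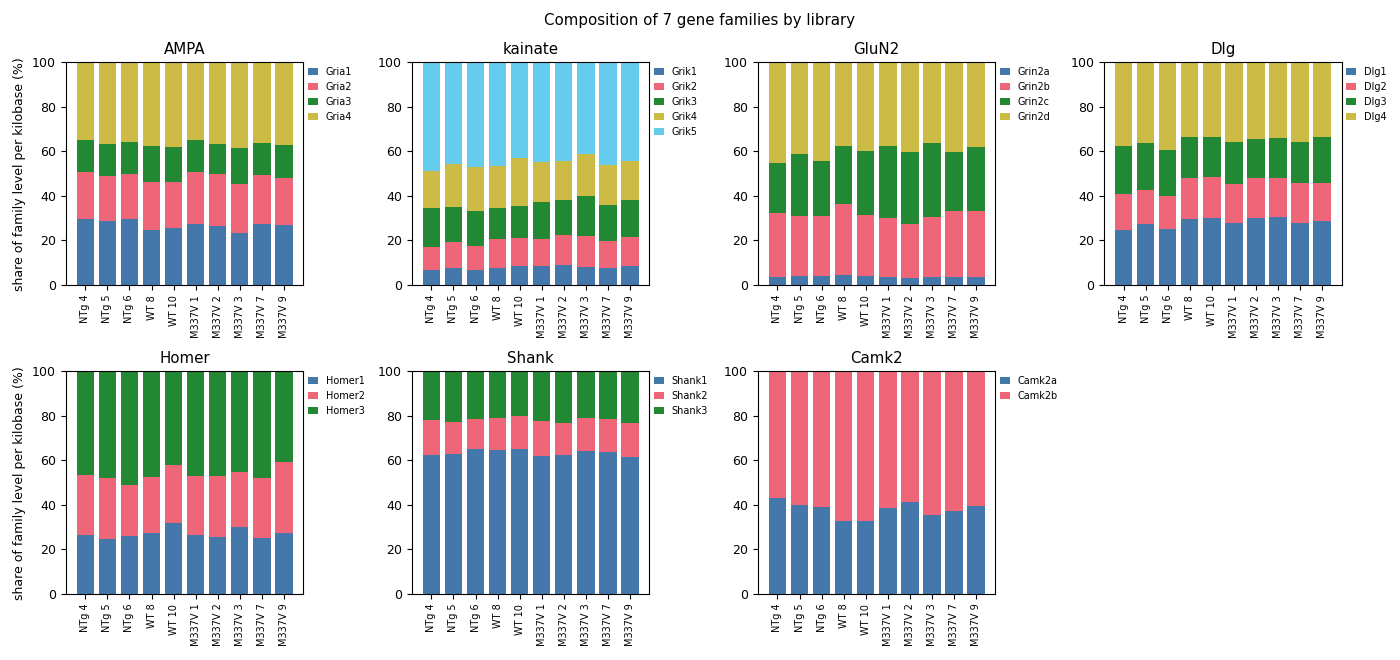
Share of each family member in its family's summed level per kilobase (percent, 0 to 100), 1 stacked bar per library, for 7 families. The Camk2a segment is smallest in the 2 WT libraries (mean 32.7%), and Slc17a6, at 98.5% of its family, is not drawn.

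In M337V against NTg, 3 of 38 members (7.89%) were called, beside 4.29% of all genes tested. Dlg2 was higher (1 of 38, beside 2.67% of all genes called higher), and the NMDA subunits Grin1 and Grin2d were lower (2 of 38, beside 1.61%). In WT against NTg, 6 of 38 members (15.8%) were called, beside 5.64% of all genes. Homer1 was higher (1 of 38, beside 3.59%), and Camk2a, Camk2b, Grik3, Grin2d and Dlg4 were lower (5 of 38, beside 2.05%). The median log2 difference of the members was -0.06 in M337V and -0.09 in WT, beside -0.01 and -0.02 for all genes. Values lay below zero for 21 members and above it for 17 in M337V, and below for 24 and above for 14 in WT. Of 18 alternative settings, the M337V calls were kept in 12 for Dlg2, 9 for Grin1 and 8 for Grin2d. The WT calls were kept in 18 for Camk2a, 10 for Homer1, 7 for Camk2b, 5 for Grik3, 4 for Grin2d and 1 for Dlg4. For each comparison, the 18 settings include fits that left out only libraries of the group not compared. Those fits kept every library of the 2 compared groups, so they are a weaker check of the call. These 2 comparisons share the NTg libraries, so their values are set side by side only. In M337V against NTg, the groups did not overlap for 10 of 38 members, beside 18.1% of all genes. In WT against NTg they did not overlap for 20 of 38, beside 41.7%, a share that is high for any gene with groups of 2 and 3. No member was called in M337V against WT by edgeR's quasi-likelihood test, where 0% of all genes was called; 8 of 38 members and 6.66% of all genes had an unadjusted p below 0.05.

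**Figure D3:**
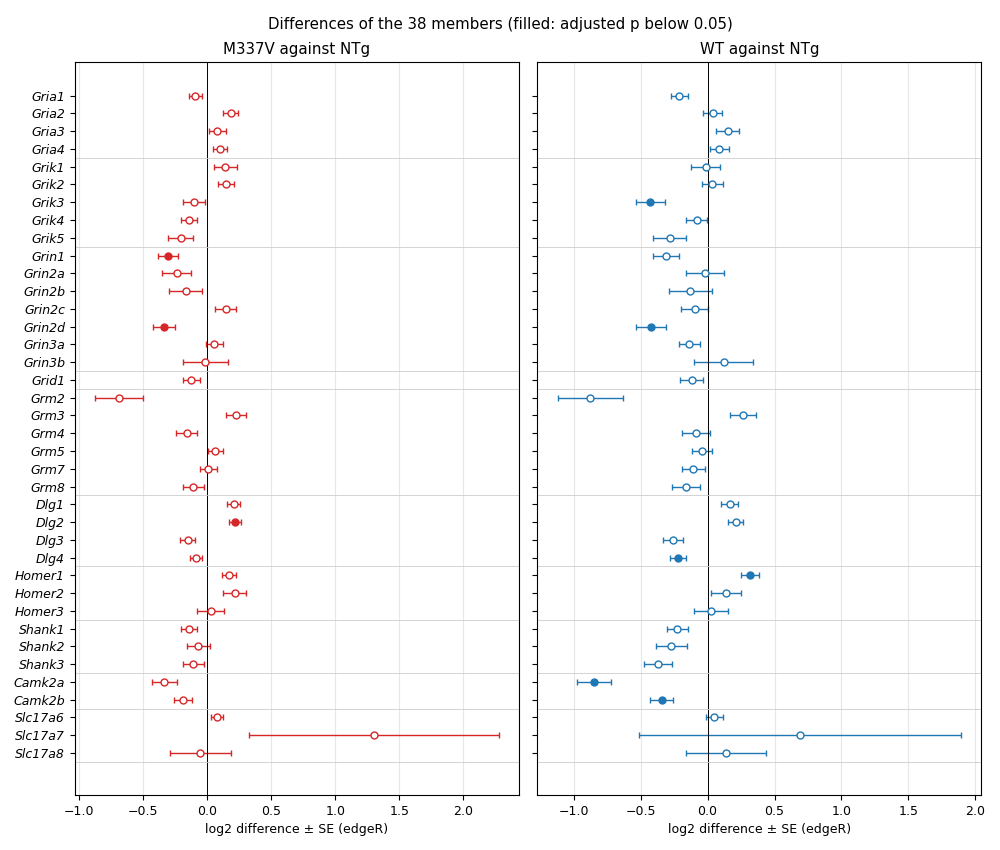
Log2 difference with its standard error for each of the 38 members, M337V against NTg on the left and WT against NTg on the right; filled points have an adjusted p below 0.05. The lowest filled point is Camk2a in WT at -0.85, and the long bars belong to Slc17a7.

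Among the 4 AMPA subunits, which form the channels of fast excitation, none was called. Gria2, whose edited form keeps calcium out of the channel, had 359.8, 345 and 349.8 CPM in NTg 4, 5 and 6. It had 365 and 356 CPM in WT 8 and 10, and 426, 422, 404, 366 and 375 in M337V 1, 2, 3, 7 and 9. All 5 M337V libraries lay above the NTg libraries, with a log2 difference of 0.18 ± 0.06 (SE) and an adjusted p of 0.084. Gria4, the highest member per length of this class, had 238, 253 and 251 CPM in NTg, 259 and 267 in WT, and 259, 269, 289, 241 and 264 in M337V. Gria3, the lowest, had 150.3, 157 and 160.4 CPM in NTg, 170.2 and 175 in WT, and 164, 154, 191, 150.3 and 164 in M337V. For both, the WT libraries lay above the NTg libraries and the M337V libraries overlapped them, and neither was called. Gria1 had a log2 difference of -0.21 ± 0.06 in WT (adjusted p = 0.0703) and of -0.09 ± 0.05 in M337V (adjusted p = 0.28).

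Of the 5 kainate receptor subunits, 1 was called. Grik3, a subunit that forms channels of low glutamate sensitivity, had 54.8, 43.5 and 44.4 CPM in NTg 4, 5 and 6, and 37.7 and 33.1 in WT 8 and 10. It had 48.9, 41.2, 44.6, 43.1 and 43.3 CPM in M337V 1, 2, 3, 7 and 9. Both WT libraries lay below all others, while M337V overlapped NTg. In WT the log2 difference from NTg was -0.43 ± 0.11 (adjusted p = 0.0431), and without NTg 4, the highest of the NTg libraries, it was -0.31 (adjusted p = 0.104). In M337V it was -0.11 ± 0.09 (adjusted p = 0.48). Grik5, an accessory subunit that raises the receptor's affinity and the highest per length here, had 86.8, 72.3 and 76.6 CPM in NTg, 72.5 and 56.6 in WT, and 75.3, 67.7, 58.6, 71.3 and 67.0 in M337V. Grik1, the lowest, had 15.8, 15.9 and 13.9 CPM in NTg, 15.6 and 14.5 in WT, and 18.4, 18.0, 15.4, 15.2 and 16.7 in M337V. Neither was called, and their groups overlapped. Grik2 and Grik4 had log2 differences of 0.15 ± 0.06 and -0.14 ± 0.06 in M337V and of 0.03 ± 0.08 and -0.08 ± 0.08 in WT, and neither was called.

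Of the 7 NMDA receptor genes, 2 fell in M337V and 1 fell in WT. Grin1, the subunit every NMDA receptor contains, had 344, 331 and 387 CPM in NTg 4, 5 and 6, and 295 and 275 in WT 8 and 10. It had 300.2, 250.1, 266, 306 and 309 CPM in M337V 1, 2, 3, 7 and 9. All 7 transgenic libraries lay below the NTg libraries. The log2 difference from NTg was -0.31 ± 0.08 in M337V (adjusted p = 0.0482) and -0.31 ± 0.10 in WT (adjusted p = 0.0781), and without NTg 4 the M337V value was -0.32 (adjusted p = 0.0989). Without NTg 6, the highest of the NTg libraries, the M337V value was -0.24 (adjusted p = 0.229). It was -0.19 without M337V 1 to 3 (adjusted p = 0.324).

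Grin2d encodes a subunit that gives slowly closing channels. It had 50.9, 40.5 and 46.0 CPM in NTg, 37.3 and 31.2 in WT, and 37.1, 35.8, 32.1, 39.0 and 36.7 in M337V. Again no transgenic library reached the lowest NTg value, and NTg 4 was the highest. The log2 difference was -0.34 ± 0.09 in M337V (adjusted p = 0.0494) and -0.42 ± 0.11 in WT (adjusted p = 0.0486). Without NTg 4 it was -0.25 in M337V (adjusted p = 0.168), and -0.33 in WT (adjusted p = 0.132). Grin2d overlaps Kdelr1 on the opposite strand, with no exon base in common. Its share among the GluN2-type subunits was 43.7% ± 2.03 in NTg, 38.6% ± 1.80 in WT and 38.5% ± 1.88 in M337V.

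Grin2a, a subunit typical of mature forebrain receptors, was the lowest of the class per length. It had 10.7, 10.4 and 10.7 CPM in NTg, 11.98 and 8.96 in WT, and 9.57, 7.56, 8.88, 8.99 and 9.88 in M337V. The M337V libraries lay below NTg, but the log2 difference of -0.24 ± 0.11 was not called (adjusted p = 0.22). The other 4 were not called either. In M337V, Grin2b had a log2 difference of -0.17 ± 0.13, Grin2c of 0.14 ± 0.08, Grin3a of 0.05 ± 0.06 and Grin3b of -0.02 ± 0.18. In WT the same 4 lay between -0.14 ± 0.08 (Grin3a) and 0.12 ± 0.22 (Grin3b). Grin3b shares 1059 exon bases with Tmem259 on the opposite strand, and whether the counting used strand is not given, so its level is uncertain.

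Grid1, which encodes a delta receptor that links to presynaptic partners rather than opening to glutamate, had 53.1, 49.7 and 53.1 CPM in NTg, 49.8 and 45.9 in WT, and 47.3, 42.2, 46.6, 52.6 and 49.8 in M337V. Its log2 difference was -0.12 in both comparisons, with the groups overlapping. No metabotropic receptor was called. Grm2, an inhibitory autoreceptor, showed the most negative log2 differences of the 38 members at a low level. It had 4.46, 3.50 and 3.63 CPM in NTg, 2.56 and 1.66 in WT, and 2.51, 2.09, 2.30, 3.00 and 2.08 in M337V. No transgenic library reached the NTg range, and the log2 difference was -0.69 ± 0.19 in M337V (adjusted p = 0.0593) and -0.88 ± 0.25 in WT (adjusted p = 0.0573).

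Grm3, the related receptor that astrocytes also express, was the highest metabotropic member per length. It had 36.0, 44.8 and 40.7 CPM in NTg, 46.6 and 50.8 in WT, and 44.0, 48.6, 49.8, 44.1 and 49.7 in M337V. Its values pointed the other way from those of Grm2, with log2 differences of 0.22 ± 0.08 in M337V (adjusted p = 0.106) and 0.26 ± 0.09 in WT (adjusted p = 0.109). The 7 astrocyte markers summed to 7597 to 8181 CPM in the NTg libraries, 8665 to 9143 in the WT libraries and 7483 to 9647 in the M337V libraries, and their part in the Grm3 values was not tested. Single astrocyte markers differed in direction. Gfap had 20612 to 22390 raw counts in NTg, 37991 and 26557 in WT, and 18388 to 37129 in M337V. Aldh1l1 had 1481 to 1625 in NTg, 1282 and 1372 in WT, and 1176 to 1465 in M337V. Grm4, Grm5, Grm7 and Grm8 lay between -0.16 ± 0.08 (Grm4) and 0.06 ± 0.06 (Grm5) in M337V and between -0.16 ± 0.10 (Grm8) and -0.04 ± 0.07 (Grm5) in WT.

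The Dlg genes encode membrane-associated guanylate kinases that anchor NMDA and AMPA receptors, and they split by direction. Dlg2 had 139.7, 134 and 129.7 CPM in NTg 4, 5 and 6, and 160.4 and 151 in WT 8 and 10. It had 159, 162, 155, 154 and 149.8 CPM in M337V 1, 2, 3, 7 and 9. Every transgenic library lay above every NTg library. The log2 difference was 0.21 ± 0.05 in M337V (adjusted p = 0.0322) and 0.21 ± 0.06 in WT (adjusted p = 0.0517). Without NTg 4 it was 0.25 in M337V (adjusted p = 0.0492), and without NTg 6 it was 0.19 (adjusted p = 0.179). Dlg1 had log2 differences of 0.20 ± 0.05 in M337V (adjusted p = 0.0515) and 0.16 ± 0.07 in WT (adjusted p = 0.146).

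Dlg4 encodes the main Dlg scaffold of the mature postsynaptic density. It had 267, 255 and 277 CPM in NTg, 233 and 223 in WT, and 265, 253, 245, 249 and 242 in M337V. The WT libraries lay below all others, and M337V overlapped NTg. The log2 difference was -0.22 ± 0.06 in WT (adjusted p = 0.0468) and -0.09 ± 0.05 in M337V (adjusted p = 0.282). Without NTg 4 the WT value was -0.21 (adjusted p = 0.111). Dlg3 had -0.26 ± 0.07 in WT (adjusted p = 0.0565) and -0.15 ± 0.06 in M337V (adjusted p = 0.126).

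Homer1 encodes a scaffold that ties group I metabotropic receptors to Shank proteins. It had 31.7, 28.9 and 31.0 CPM in NTg 4, 5 and 6, 38.2 and 37.9 in WT 8 and 10, and 33.0, 33.9, 36.6, 33.9 and 34.2 in M337V 1, 2, 3, 7 and 9. The groups did not overlap and were ordered NTg, M337V, WT. The log2 difference was 0.32 ± 0.07 in WT (adjusted p = 0.0252) and 0.17 ± 0.06 in M337V (adjusted p = 0.0922). Without NTg 4 the WT value was 0.35 (adjusted p = 0.0479). Homer2, the lowest of the 3 per length, had 33.4, 34.2 and 28.5 CPM in NTg, 37.3 and 33.2 in WT, and 34.8, 38.4, 32.2, 38.6 and 41.6 in M337V. Homer3, the highest, had 15.9, 16.3 and 17.2 CPM in NTg, 19.05 and 14.5 in WT, and 16.9, 18.1, 15.8, 18.5 and 14.6 in M337V. For both the groups overlapped and neither was called, and Homer3 shares 874 exon bases with Ddx49 on the opposite strand.

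The 3 Shank genes, which encode the platform beneath the Dlg layer, all had negative log2 differences and none was called. In M337V all 3 turned positive with the trends of GC content and length taken out, and Shank2 also without NTg 4. Shank1, the highest, had 232, 205 and 228 CPM in NTg, 200.3 and 179.5 in WT, and 216, 204, 185, 207 and 196 in M337V. Shank2, the lowest, had 59.8, 48.7 and 48.7 CPM in NTg, 45.6 and 41.2 in WT, and 57.3, 49.4, 43.8, 49.2 and 49.9 in M337V. For each of the 3, the WT libraries lay below NTg and M337V overlapped it. Shank3 had log2 differences of -0.37 ± 0.10 in WT (adjusted p = 0.0571) and -0.11 ± 0.08 in M337V (adjusted p = 0.444). Shank1 shares 339 exon bases with 1700008O03Rik on the opposite strand.

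The CaMKII subunits, which make up the abundant calcium-activated kinase of the postsynaptic density, held the call kept in the most alternative settings. Camk2a had 231, 189 and 204 CPM in NTg 4, 5 and 6, 123 and 108 in WT 8 and 10, and 182, 174, 133, 163 and 172 in M337V 1, 2, 3, 7 and 9. The groups did not overlap: WT was lowest, M337V was between, and NTg was highest. In WT the level was 44.4% lower than in NTg, a log2 difference of -0.85 ± 0.13 (adjusted p = 0.0107). It was -0.76 without NTg 4 (adjusted p = 0.0255) and -0.86 without both NTg 4 and WT 8 (adjusted p = 0.0437). The call held in all 18 alternative settings, with adjusted p of at most 0.0470. In M337V the level was 20.7% lower, a log2 difference of -0.33 ± 0.10 that was not called (adjusted p = 0.067).

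Camk2b had 374, 345 and 387 CPM in NTg, 309 and 273 in WT, and 357, 302, 299, 333 and 324 in M337V. WT lay below NTg, and M337V overlapped both. The log2 difference was -0.34 ± 0.09 in WT (adjusted p = 0.0431) and -0.19 ± 0.07 in M337V (adjusted p = 0.116). Without NTg 4 the WT value was -0.32 (adjusted p = 0.102).

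**Figure D4:**
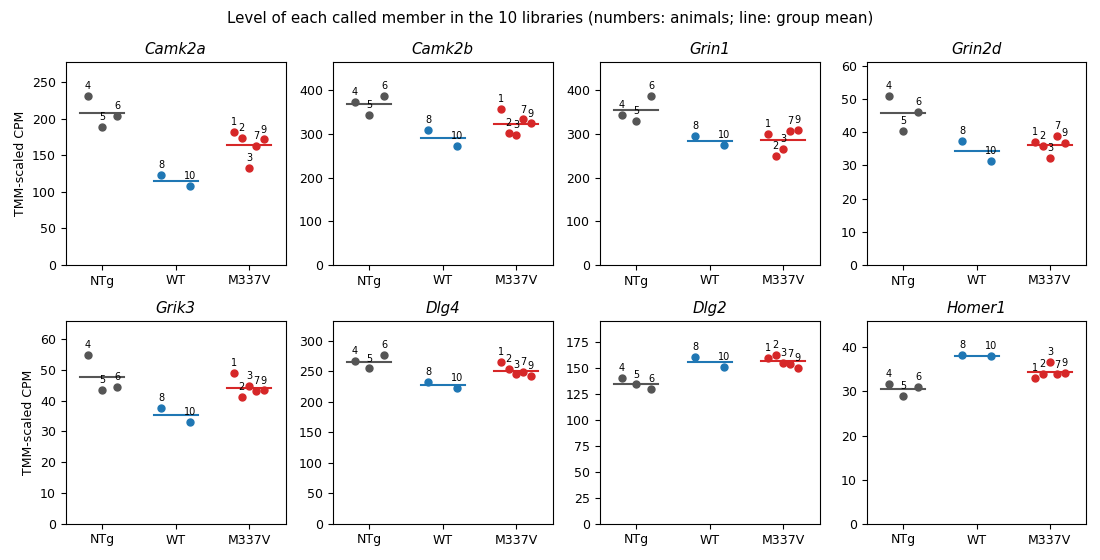
TMM-scaled CPM of the 8 members called in any comparison, 1 panel per gene with its own axis from 0; points are libraries numbered by animal and lines are group means. The Camk2a means are 208 (NTg), 165 (M337V) and 116 (WT), while Dlg2 and Homer1 are higher in every transgenic library than in NTg.

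The vesicular transporters did not differ between groups by the test. Slc17a6 had 289.6, 290.3 and 275 CPM in NTg, 282 and 308 in WT, and 295, 284, 303, 305 and 315 in M337V, with log2 differences of 0.08 ± 0.05 in M337V and 0.05 ± 0.06 in WT. Its groups overlapped, and it varied least of the 38 members between libraries. Slc17a7, the transporter of cortical and large sensory neurons, had 0.245, 2.76 and 0.605 CPM in NTg, 3.71 and 0.195 in WT, and 4.55, 3.65, 0.993, 5.32 and 0.208 in M337V. Each group held libraries with both low and high values, and the raw counts ran from 4 to 103, and its log2 difference of 1.30 ± 0.98 in M337V was not called (adjusted p = 0.449). The forebrain markers Emx1 and Fezf2 had 0 or 1 count in every library. Slc17a8 had 1.47, 2.12 and 2.28 CPM in NTg, 2.51 and 1.80 in WT, and 2.20, 1.56, 1.99, 2.33 and 1.35 in M337V, with overlapping groups.

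Between the transgenic groups, the groups did not overlap for 6 of 38 members (Gria2, Grik3, Grin3a, Dlg4, Homer1 and Camk2a), beside 9.5% of all genes. The members' median log2 difference, M337V minus WT, was 0.08, beside 0.00 for all genes, and 28 of 38 values were above zero. Camk2a had the smallest p, with M337V higher by 0.51 ± 0.12 on the log2 scale (adjusted p = 0.496), and Grik3 followed with 0.32 ± 0.10 (adjusted p = 0.63). DESeq2 called 1 member here, Camk2a (adjusted p = 0.0076), while edgeR's quasi-likelihood test called none. The missed threshold does not show that the mutant and wild-type transgenes act alike.

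A list of 45 further genes of the synapse (auxiliary receptor subunits, adhesion and density proteins) gave 3 calls (6.67%) in M337V and 5 (11.1%) in WT against NTg, beside the 4.29% and 5.64% of all genes. Cacng5, an auxiliary subunit of AMPA receptors, had 19.9, 19.1 and 18.6 CPM in NTg, 11.4 and 10.9 in WT, and 15.4, 14.4, 11.8, 14.4 and 14.9 in M337V. It was ordered as Camk2a was, with log2 differences of -0.43 ± 0.09 in M337V (adjusted p = 0.0265) and -0.78 ± 0.11 in WT (adjusted p = 0.00957). Without NTg 4 they were -0.40 (adjusted p = 0.0701) and -0.75 (adjusted p = 0.0255). Neto2, an auxiliary subunit of kainate receptors, had 45.9, 47.3 and 45.5 CPM in NTg, 64.7 and 55.3 in WT, and 56.1, 58.9, 55.9, 60.8 and 63.8 in M337V. All transgenic libraries exceeded NTg, with log2 differences of 0.35 ± 0.07 in M337V (adjusted p = 0.0229) and 0.38 ± 0.08 in WT (adjusted p = 0.0254). Without NTg 4 they were 0.35 (adjusted p = 0.0541) and 0.38 (adjusted p = 0.0613).

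Nlgn2, an adhesion protein of inhibitory synapses, had 240.4, 218 and 244 CPM in NTg, 210.5 and 183 in WT, and 189.8, 179.8, 190.3, 212 and 199 in M337V. It fell in M337V by 0.27 on the log2 scale (adjusted p = 0.0421), and its log2 difference was -0.24 without NTg 4 (adjusted p = 0.123). The other 3 genes called in WT were all lower there. Baiap2, which binds Shank and Dlg proteins, had 30.5, 26.7 and 29.0 CPM in NTg, 20.8 and 17.3 in WT, and 26.7, 24.0, 23.1, 25.3 and 28.2 in M337V. Its log2 difference in WT was -0.59 ± 0.11 (adjusted p = 0.0163), and -0.54 without NTg 4 (adjusted p = 0.0450). Agap2, a GTPase regulator that binds Homer, had 121, 109 and 116 CPM in NTg, 89.6 and 80.7 in WT, and 110.0, 95.8, 85.7, 101 and 103 in M337V. Its WT difference was -0.44 ± 0.09 (adjusted p = 0.0261), and -0.40 without NTg 4 (adjusted p = 0.0717). Shisa7, an auxiliary receptor subunit, had 47.9, 42.2 and 43.7 CPM in NTg, 34.1 and 24.2 in WT, and 44.4, 37.5, 33.2, 36.5 and 37.5 in M337V. Its WT difference was -0.62 ± 0.14 (adjusted p = 0.0314), and -0.55 without NTg 4 (adjusted p = 0.0835). In all 3, both WT libraries lay below NTg.

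In M337V against WT no gene of this list was called by edgeR or DESeq2, and 10 of 45 had an unadjusted p below 0.05. The smallest p belonged to Baiap2 (0.42 ± 0.10, adjusted p = 0.539), Cacng5 (0.35 ± 0.10, adjusted p = 0.625) and Nrgn, a calmodulin-binding protein of dendrites (0.56 ± 0.17, adjusted p = 0.625). Nrgn had 18.0, 18.3 and 18.95 CPM in NTg, 14.3 and 9.65 in WT, and 20.4, 18.0, 13.2, 17.3 and 19.1 in M337V.

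The differences from NTg moved with the GC content of the transcripts, in the members as in all genes. Across 38 members, Spearman's correlation of the log2 difference with the GC content of the longest transcript was -0.51 in M337V and -0.55 in WT, beside -0.45 and -0.44 across 15149 genes. These are correlations across genes, which share the same libraries and are not independent replicates. Of the 19 members below the median GC content of 48.9%, 13 were above zero and 6 below in M337V, and 11 and 8 in WT. Of the 19 above it, 4 were above zero and 15 below in M337V, and 3 and 16 in WT. The called genes other than Dlg4 followed this order. Homer1 (36.9% GC) and Dlg2 (44.3%) were higher, and Camk2a (53.3%), Camk2b (53.9%), Grik3 (54.2%), Grin1 (59.4%) and Grin2d (65.0%) were lower. Dlg4 (46.8%) was lower against it. Each value is that of the longest annotated transcript alone. The GC content of other Dlg4 transcripts was not examined, so its place against the order holds for that transcript only.

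When smooth trends of GC content and length were removed from the libraries, no member remained called in M337V and only Camk2a in WT, at a log2 difference of -0.72 (adjusted p = 0.00908). Dlg2 then had 0.17 in M337V (adjusted p = 0.0616), Grin1 -0.14 (adjusted p = 0.243) and Grin2d -0.21 (adjusted p = 0.0555). Homer1 had 0.12 in WT (adjusted p = 0.302) and Camk2b -0.20 (adjusted p = 0.11). Grin2d had -0.24 in WT (adjusted p = 0.0506), Dlg4 -0.24 (adjusted p = 0.0507) and Grik3 -0.27 (adjusted p = 0.111). Values then lay above and below zero for 19 and 19 members in M337V, and for 13 and 25 in WT. Over all genes, calls numbered 250 in M337V and 607 in WT after this removal, beside 651 and 857 before it. What sets the GC trend in these libraries was not tested.

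**Figure D5:**
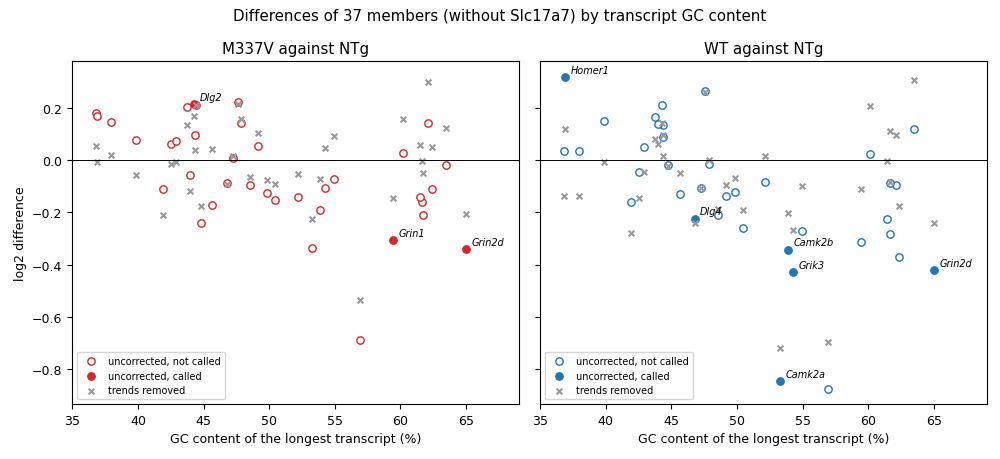
Log2 difference from NTg against the GC content of the longest transcript (percent) for 37 members, M337V on the left and WT on the right; circles are uncorrected values, filled where called, and crosses are values after the trends were removed. Uncorrected values slope downward, and Camk2a in WT stays low at -0.72 after removal.

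The GC content of promoters was read from RefSeq sequences of build GRCm38.p6, with 26 of 38 members matched. The GC box, GGGCGG or CCGCCC for either strand, was present in 19 of the 41 annotated promoters of members (46.3%) within 250 bases before the start, beside 32.7% of all 32851 promoters. Grik3 and Dlg4 are shown as examples of members called lower in WT. Camk2b and Grin2d, also called lower there, have a promoter that is not printed. That of Camk2b held 78.4% GC with 3 boxes, and that of Grin2d 54.4% GC with 0 boxes. The Grin2d promoter belongs to a start 11697 bases inside the annotated gene, and that of Camk2b to a start 614 bases inside. No promoter at the annotated start of Grin2d was among the matched sequences. Dlg4 has 3 annotated promoters, and the one nearest to the annotated gene start is printed. GC boxes are in capitals, and sequences run 5′ to 3′.
Grik3, chr4:125490446-125490695, plus strand: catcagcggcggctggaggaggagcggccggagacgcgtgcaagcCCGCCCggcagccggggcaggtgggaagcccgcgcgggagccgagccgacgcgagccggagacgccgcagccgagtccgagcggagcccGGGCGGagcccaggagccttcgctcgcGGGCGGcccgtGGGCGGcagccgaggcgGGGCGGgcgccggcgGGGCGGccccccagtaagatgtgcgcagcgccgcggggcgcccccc
Dlg4, chr11:70016953-70017202, plus strand: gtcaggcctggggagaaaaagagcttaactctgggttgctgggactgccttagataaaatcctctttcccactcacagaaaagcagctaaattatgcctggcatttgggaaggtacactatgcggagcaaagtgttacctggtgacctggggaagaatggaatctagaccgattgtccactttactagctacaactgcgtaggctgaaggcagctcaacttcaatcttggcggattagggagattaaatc
The Grik3 promoter held 82.0% GC and 6 boxes, and the printed Dlg4 promoter held 47.2% GC and none. The other Dlg4 promoters held 68.0% GC with no box and 56.8% GC with 1 box. A match is a run of letters and not a shown binding site.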

How the data were processed

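RNA of 10 lumbar spinal cords was made into stranded TruSeq libraries and sequenced as read pairs, per the labels' protocols. The authors deposited raw counts, whole numbers for each gene in each library. Tools listed in the submitters' processing notes, in no stated order or role, include STAR 2.4.2a, Salmon 0.8.2, featureCounts with Subread 1.4.6, Trimmomatic 0.32 and DESeq2 1.14.1. Genome build, annotation and use of strand in counting: not given in the sources used here. Gene names, transcripts and coordinates come from GENCODE on GRCm38, which named 21774 of 22024 identifiers.

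Groups were taken from the genotype labels. The 38 members and the lists of partner and marker genes were chosen with earlier results of these data known. In edgeR 4.0.16 (limma 3.58.1, R 4.3.3), filterByExpr (minimum count 10, minimum total 15) kept 15191 genes holding 99.971% of the counts and dropped 6833. After TMM scaling, the quasi-likelihood test was run on all 10 libraries with a mean per group, so the 3 groups share 1 estimate of the spread. P-values were adjusted by Benjamini-Hochberg over all 15191 genes, with a threshold of 0.05. The fits were tested on simulated data. Alternatives were RLE scaling, no filter, fits of the compared groups alone, DESeq2 1.42.0, limma-voom with quality weights, removal of GC content and length trends (splines with 5 degrees of freedom), each library left out, NTg 4 and WT 8 left out together, and M337V 1 to 3 left out. Library totals of 18724888 to 21041474 counts set the precision of low genes such as Slc17a7 and Grm2.

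Values in every library are given for members called in any comparison, for the 2 smallest p where none was called, and for the highest and lowest member per length of each role; Gria2 and Slc17a8 were added after their values were seen. Partner genes are named where called, or by the 3 smallest p.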

Additional observations from a re-analysis of the deposited data

How the results depend on the processing

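Over 93 log2 differences (the 38 members and the called partner genes against NTg, and 5 genes in M337V against WT), 1458 values under alternatives kept their direction and their side of the threshold, 132 lost the call, 29 gained it and 55 changed sign. No called member changed sign, but 13 members in M337V and 15 in WT did so in at least 1 alternative. With the trends of GC content and length taken out, the M337V values became -0.058 for Gria3, 0.0479 for Grik3, 0.0434 for Grin2b, 0.13 for Grin3b, -0.0139 for Grm5, -0.0065 for Homer1, 0.0583 for Shank1, 0.0922 for Shank2, 0.0512 for Shank3 and -0.0056 for Slc17a6. The WT values became -0.14 for Gria2, -0.0065 for Gria3, -0.14 for Grik2, 0.0182 for Grik4, 0.0984 for Grin2c, 0.11 for Grm4 and -0.0439 for Slc17a6. With limma-voom, Grm7 in M337V was -0.0059 and Slc17a7 in WT -0.18. Without both NTg 4 and WT 8, the M337V values were 0.0139 for Grik3, -0.0418 for Grm7 and 0.0429 for Shank2, and the WT values -0.0947 for Grik2, -0.14 for Grin3b, -0.20 for Homer3, -3.09 for Slc17a7 and -0.28 for Slc17a8. With 1 library left out, values that crossed zero in M337V ranged from -0.17 to 0.0139 for Grik3, -0.14 to 0.14 for Grin3b, -0.0419 to 0.074 for Grm7, -0.0045 to 0.0799 for Homer3, -0.12 to 0.0428 for Shank2 and -0.22 to 0.0716 for Slc17a8. In WT they ranged from -0.0741 to 0.0389 for Grik1, -0.11 to 0.17 for Grik2, -0.24 to 0.18 for Grin2a, -0.45 to 0.14 for Grin2b, -0.21 to 0.0093 for Grin2c, -0.028 to 0.28 for Grin3b, -0.19 to 0.0113 for Grm4, -0.12 to 0.0328 for Grm5, -0.19 to 0.21 for Homer3, -0.0165 to 0.11 for Slc17a6, -2.62 to 2.18 for Slc17a7 and -0.12 to 0.36 for Slc17a8. The counts of calls moved with the share of all genes called under each setting, which is given in brackets. Members called in M337V against NTg, 3 as reported, numbered 5 with the compared groups alone (7.08% of all genes). They numbered 7 with DESeq2 (9.8%), 6 with limma-voom (8.66%), 0 with the trends removed (1.65%) and 0 without M337V 1 to 3 (0.0198%). With 1 NTg or M337V library left out, they ranged from 0 to 6. They numbered 0 without NTg 6 (0.0132%), M337V 2 (0.349%) or M337V 3 (1.06%), and 6 without M337V 7 (4.78%). Without NTg 4 (1.3%), NTg 5 (1.85%) or M337V 1 (3.06%) there was 1. Members called in WT against NTg, 6 as reported, numbered 1 with the groups alone (1.72% of all genes) and 12 with DESeq2 (11.2%). They numbered 1 with limma-voom (1.42%) and 1 with the trends removed (4%). With 1 NTg or M337V library left out, they ranged from 1 without NTg 6 (0.291%) to 6 without M337V 3 (7.17%). They numbered 2 without NTg 4 (1.87%), M337V 2 (4.23%), M337V 7 (5.04%) or M337V 9 (4.82%). In fits without WT 8 or WT 10 the lone WT sample is assumed to vary like the other groups, so their counts of called members are not given. The size of a WT difference depended on which WT library was kept. For Grik3 in WT against NTg the log2 difference was -0.52 without WT 8 and -0.33 without WT 10. In M337V against WT, DESeq2 called 1 member (0.191% of all genes). Every other setting that kept both WT libraries called 0 members and at most 0.0132% of all genes. The same shares of all genes apply to the partner genes. Partner genes called in M337V against NTg, 3 as reported, numbered 6 with the groups alone, 7 with DESeq2 and 5 with limma-voom. They numbered 0 with the trends removed and 0 without M337V 1 to 3. With 1 NTg or M337V library left out, they numbered 0 (NTg 4, NTg 6 or M337V 2) to 4 (M337V 7). In WT against NTg, 5 as reported, partner genes called numbered 3 with the groups alone, 12 with DESeq2, 2 with limma-voom and 3 with the trends removed. They numbered 9 without M337V 1 to 3 (6.33% of all genes). With 1 NTg or M337V library left out, they numbered 1 (NTg 6) to 8 (M337V 3). The cause of these shifts was not tested. Without NTg 6, calls over all genes numbered 2 in M337V and 44 in WT against NTg. With the longest transcript in place of merged exons, shares over all libraries moved to 32.1% for Gria4, 44.0% for Grin2d, 40.8% for Dlg4, 41.1% for Homer3, 60.1% for Shank1 and 70.6% for Camk2b. Of the 10 highest members per length, 9 were shared, but Camk2b (80.1) and Grin1 (71.6) then lay above Slc17a6 (71.2). No paired analysis was possible because the groups share no animal number. Depth limits the lowest members, Slc17a7 in particular.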
